A study of Mus musculus with 3 samples.

Results

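Osteoclasts, the cells that resorb mineralised tissue, form under the control of signals made by matrix-forming cells, and the genes for 7 proteins of that control were read here in cultured cementoblasts. They were taken by symbol from the gene count table: Tnfsf11 (RANKL), Tnfrsf11b (osteoprotegerin), Tnfrsf11a (RANK), Csf1 (M-CSF), Il34, Il6 and Acp5 (tartrate-resistant acid phosphatase, TRAP). All 7 were among the 46095 genes of the table and each had a count in at least 1 library, although Acp5 had none on day 0 and Tnfrsf11a none on day 7. The cells were OCCM-30, a single mouse line of genotype wt made up of cementoblasts, which lay down cementum, the mineralised covering of the tooth root. The 3 groups were cells without cementogenic differentiation (day 0) and cells differentiated in cementogenic medium for 7 days or for 14 days, with 1 library of total RNA each. No uninduced culture of matching age is analysed here, so time in culture and induction cannot be told apart.

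RANKL, a membrane or shed TNF family ligand, binds RANK on osteoclast precursors and drives them to become osteoclasts. Osteoprotegerin is a secreted decoy receptor that binds RANKL and keeps it from RANK, so that the balance of ligand and decoy is the usual readout of how far a matrix-forming cell favours resorption. M-CSF and interleukin-34 are separate ligands of the same receptor, CSF1R, on which monocyte lineage cells depend for survival, and interleukin-6 is an inflammatory cytokine that can raise RANKL in stromal cells. TRAP is the classical histochemical marker of osteoclasts. In teeth this axis is known from tooth eruption and from root resorption, in which cementum is lost.

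Library totals ran from 13224690 to 14439666 counts. Levels are given as CPM, the usual depth-scaled unit of counts, with TMM scaling factors, and as the authors' deposited FPKM where genes are compared per length. Without replicates there is no test across samples and no p-value; folds are followed by their 95% counting interval (Clopper-Pearson, exact), and folds against a count of 0 are given as bounds. Because no molecular identifiers were given, reads may share a molecule, and intervals and floors cover counting error only. A gene is said to have risen or fallen, or to be called, where its higher level was at least 1 CPM, the ratio at least 2-fold and the interval excluded 1. The list of 11 cementoblast and osteoblast markers, which does not separate these cell types, had no gene at 0 in any library. Ibsp, Bglap, Bglap2 and Dmp1, however, had only 6, 6, 12 and 27 counts on day 0. Like the other lists used here, this list was chosen with earlier results of these data known. It is therefore no independent check of the labelled cell type. Col1a1 (type I collagen) stood at 8914 CPM on day 0, and Sp7 (osterix) rose 23.1-fold (95% counting interval 19.4 to 27.5) by day 7. Ibsp, the bone sialoprotein gene, went from 6 to 948 counts, and Bglap (osteocalcin), whose reads can be shared with the near-identical Bglap2, from 6 to 29. In that list 7 of 11 genes rose and 1, Dmp1, fell on day 7, where 12.2% and 11.4% of all genes tested were called higher and lower.

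The RANKL gene fell over the time course while the osteoprotegerin gene fell further by day 7 and then rose again in part. Tnfsf11 (mm10 chromosome 14, 78277446 to 78308043, minus strand) had 89 counts on day 0, 41 on day 7 and 25 on day 14, which is 6.26, 3.02 and 1.80 CPM. It was highest before induction and lowest at the end. The fall was 2.07-fold by day 7 (1.41 to 3.07) and 3.48-fold by day 14 (2.21 to 5.66), and the further step from day 7 to day 14, 1.68-fold, had an interval of 0.998 to 2.88 and was not called. The day 7 call lies close to the 2-fold line and was lost, at 1.92-fold, with a pseudocount of 0.5 CPM.

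Tnfrsf11b (chromosome 15, 54250619 to 54278484, minus strand) had 128 counts on day 0, 12 on day 7 and 80 on day 14, or 9.0, 0.885 and 5.76 CPM. Day 7 alone was low, with a counting interval of 0.457 to 1.55 CPM that lay under those of both other libraries. The gene fell 10.2-fold by day 7 (5.62 to 20.2) and then rose 6.51-fold to day 14 (3.53 to 13.1). Day 14 was 1.56-fold below day 0 (1.17 to 2.09), an interval that excluded 1 although the ratio was under the 2-fold limit.

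The ratio of the RANKL gene to the osteoprotegerin gene within a library needs no scaling between libraries. Per listed length it was 0.877 on day 0 (95% counting interval 0.661 to 1.16), 4.31 on day 7 (2.22 to 9.004) and 0.394 on day 14 (0.241 to 0.624). Per length, ligand and decoy transcripts were therefore near parity before induction, the ligand was in excess on day 7, and the decoy was in excess on day 14. Without the length term the day 0 ratio was 0.695. The ratio was 4.89-fold higher on day 7 than on day 0 (exact conditional interval 2.36 to 10.8) and 10.7-fold lower on day 14 than on day 7 (4.70 to 26.1). Day 14 was also 2.22-fold below day 0 (1.28 to 3.93). The excess of day 7 rests on 41 counts of the ligand against 12 of the decoy, and at that time both genes were below their day 0 levels.

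**Figure D1:**
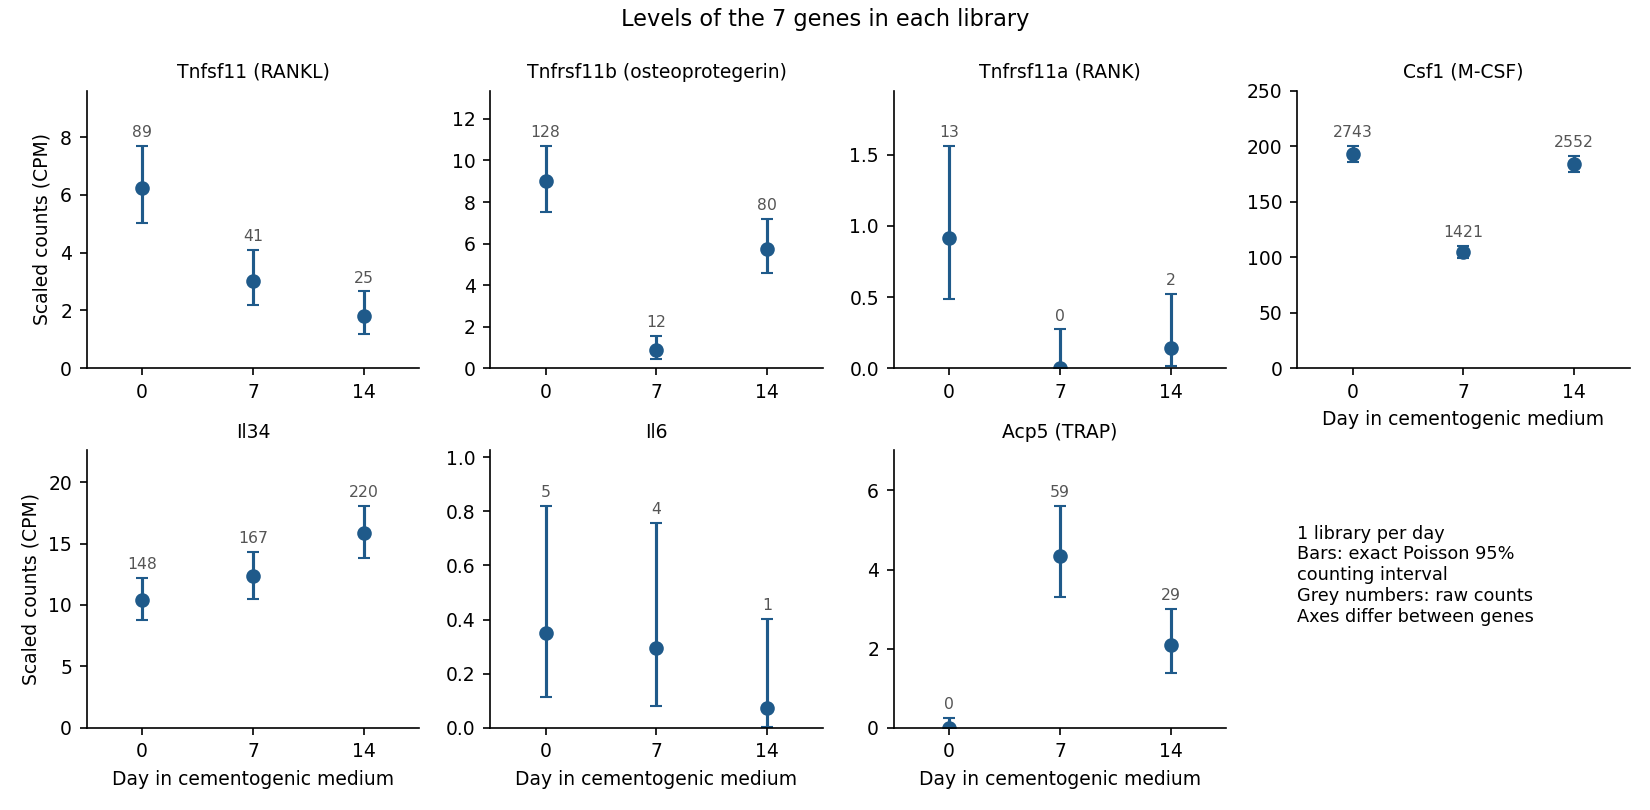
Scaled counts (CPM) of each of the 7 genes on days 0, 7 and 14, with points for the single library of each day, bars for the exact Poisson 95% counting interval and raw counts in grey; the vertical axes differ between genes. Tnfsf11 steps down from 89 to 25 counts, Tnfrsf11b and Csf1 are lowest on day 7, and Acp5 has counts on days 7 and 14 only.

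**Figure D2:**
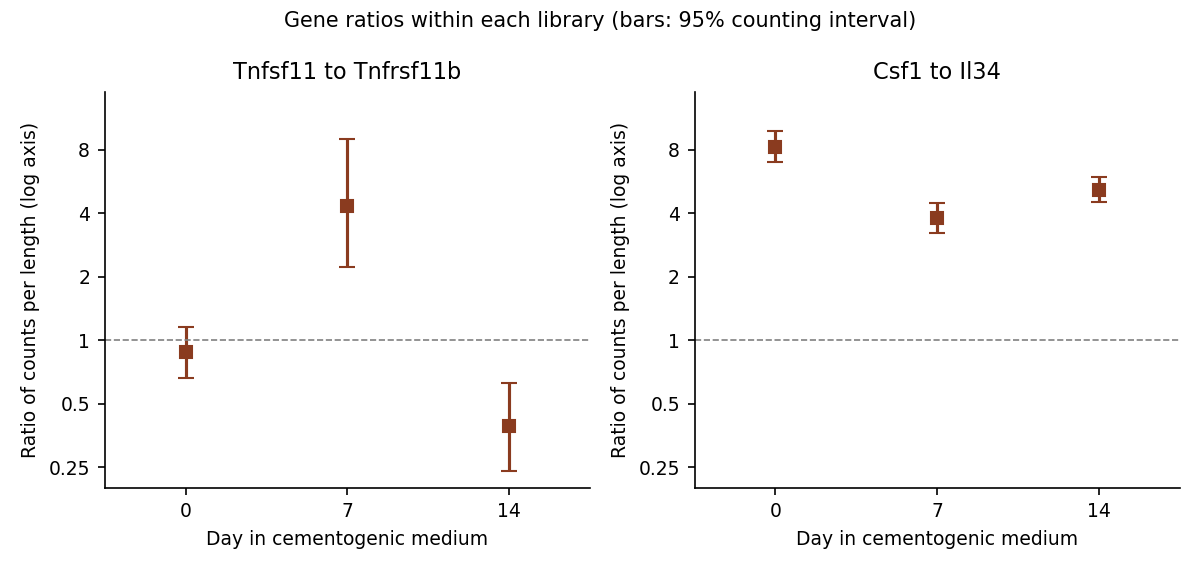
Ratio of counts per listed gene length within each library on a log axis, for Tnfsf11 to Tnfrsf11b (left) and Csf1 to Il34 (right), with 95% counting intervals and a dashed line at equal levels. The left ratio crosses from 0.877 on day 0 to 4.31 on day 7 and back to 0.394 on day 14, while the right ratio stays above 1 in all 3 libraries.

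The receptor RANK was near the limit of detection. Tnfrsf11a (chromosome 1, 105780723 to 105847981, plus strand) had 13, 0 and 2 counts on days 0, 7 and 14, or 0.914 CPM on day 0 and 0.144 CPM on day 14. The day 0 library held most of its reads. Below 1 CPM throughout, it could not be called. Against a floor of 3 counts per library, day 7 was 4.13-fold lower than day 0, with a lower counting limit of 2.90-fold. Day 14 was 6.35-fold lower with an interval of 1.44 to 57.9.

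Csf1 was the most abundant of the 7 genes in every library. The gene (chromosome 3, 107741048 to 107760469, minus strand) had 2743, 1421 and 2552 counts, or 193, 105 and 184 CPM, on days 0, 7 and 14. It was lowest on day 7, with day 14 close to day 0. Its day 7 level was 1.84-fold below day 0 (1.72 to 1.96), short of the 2-fold limit; scaling by total counts alone gave 2.05-fold, which passed it. Day 14 was 1.05-fold below day 0 (0.994 to 1.11) and 1.75-fold above day 7 (1.64 to 1.87).

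Il34, the second CSF1R ligand, did not share the dip. The gene (chromosome 8, 110741829 to 110805945, minus strand) had 148, 167 and 220 counts, or 10.4, 12.3 and 15.8 CPM, on days 0, 7 and 14. Day 7 was 1.18-fold above day 0 (0.943 to 1.49), and day 14 was 1.29-fold above day 7 (1.05 to 1.58) and 1.52-fold above day 0 (1.23 to 1.89), all under 2-fold, the last 2 with intervals that excluded 1. Per length, Csf1 exceeded Il34 by 8.25-fold on day 0 (6.99 to 9.80), 3.79-fold on day 7 (3.22 to 4.47) and 5.16-fold on day 14 (4.50 to 5.95). That ratio fell by a factor of 2.18 to day 7 (1.72 to 2.76), and on day 14 it was 1.598-fold below day 0 (1.28 to 1.995).

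Il6 was almost silent in these cells. The gene (chromosome 5, 30013114 to 30019975, plus strand) had 5, 4 and 1 counts on days 0, 7 and 14, at most 0.351 CPM, and no ratio between days had an interval that excluded 1. An annotated gene on the opposite strand, A230098N10Rik, overlaps it and had 12, 29 and 26 counts. Since the labels do not state the strand setting of the counting, reads of the pair cannot be told apart. Csf1 and Il34 also overlap opposite-strand genes, but those had at most 4 counts in any library.

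Acp5, the TRAP gene (chromosome 9, 22126727 to 22135746, minus strand), went from 0 counts on day 0 to 59 on day 7 and 29 on day 14, or 4.35 and 2.09 CPM. It was the one gene of the 7 that rose against day 0. With day 0 set to the floor of 3 counts, 0.211 CPM, day 7 was 20.6-fold higher and day 14 was 9.90-fold higher. Against the count of 0 itself, the lower 95% counting limits of the ratios were 16.3-fold and 7.55-fold. With a minimum of 5 CPM, which Acp5 did not reach in any library, neither rise was called. It then fell 2.08-fold from day 7 to day 14 (1.32 to 3.37), a call that was lost, at 1.88-fold, with a pseudocount of 0.5 CPM.

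Markers of osteoclasts and their precursors moved in both directions. Of 14 other osteoclast markers, Calcr (calcitonin receptor), Dcstamp and Ocstamp (fusion proteins) and Atp6v0d2 (a proton pump subunit) were at 0 in all 3 libraries. The summed level of the 14 was 525 CPM on day 0, 306 on day 7 and 318 on day 14, mostly genes that many cells use, such as Tcirg1, another proton pump subunit, at 134, 80.8 and 73.2 CPM. Within the list Car2 (carbonic anhydrase 2) rose 3.15-fold on day 7 (1.44 to 7.61), from 9 to 27 counts, while Mmp9 fell 7.08-fold (3.20 to 18.5), Itgb3 fell 3.33-fold (2.99 to 3.72) and Src fell 2.17-fold (1.97 to 2.38). Ctsk (cathepsin K), the main collagen-degrading protease of osteoclasts, had 50, 76 and 93 counts, 1.595-fold higher on day 7 (1.10 to 2.33) and 1.90-fold higher on day 14 (1.34 to 2.74), under the 2-fold limit. Csf1r, the receptor of M-CSF and interleukin-34, had 2, 2 and 1 counts. Of 13 monocyte and macrophage markers 7 were at 0 in each library, with Adgre1, Itgam, Tyrobp, Spi1 and Aif1 at 0 in all of them, and the list summed to 12.1, 8.92 and 9.14 CPM. Mrc1, the mannose receptor, went from 3 to 26 counts, 9.10-fold (2.79 to 46.95), and Cd14, the most abundant of the list, stood at 7.10, 3.61 and 3.67 CPM. The 8 lymphocyte markers summed to 0.703, 0.221 and 0.432 CPM, Nkg7 having the most counts. Car2, Mrc1 and, within 2-fold, Ctsk differed from day 0 in the direction of Acp5, whereas Mmp9, Itgb3 and Src fell on day 7. The day 7 calls of Car2, Mrc1 and Mmp9 were lost with a minimum of 5 CPM. Those of Car2 and Mrc1 were also lost with a pseudocount of 2 CPM, at 1.52-fold and 1.77-fold. The part of other cell types in the Acp5 counts was not tested. In RNA of whole cultures, fewer cells of a type and less RNA per cell cannot be told apart.

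**Figure D3:**
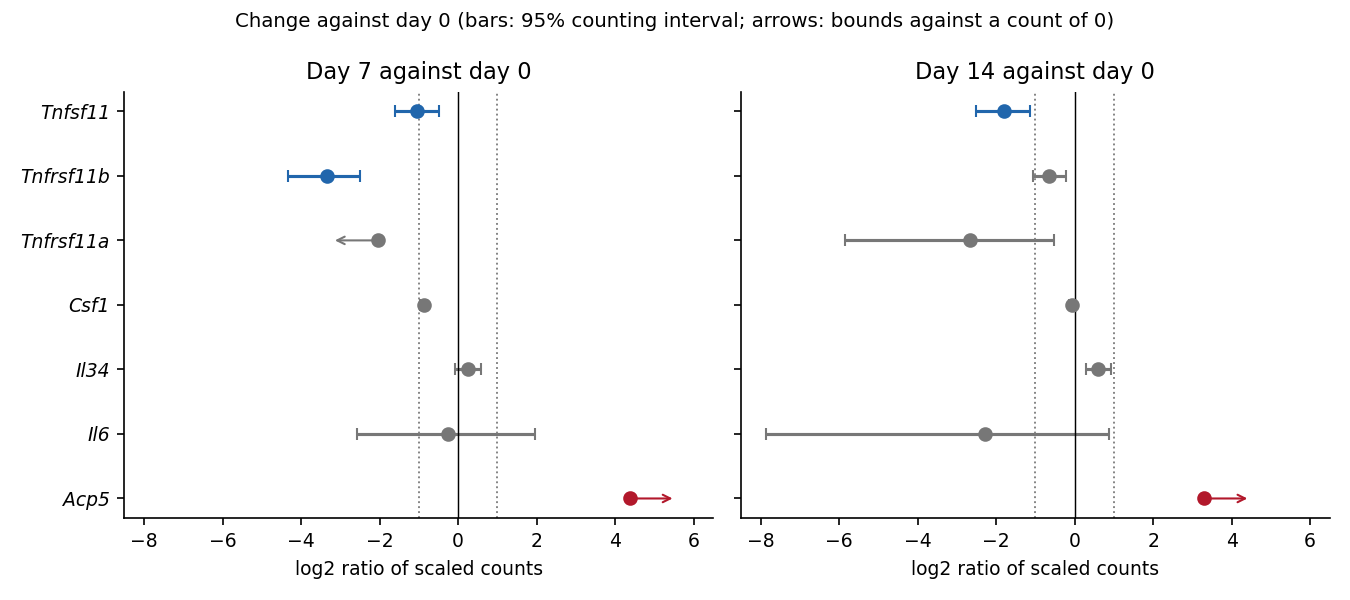
log2 ratio of scaled counts against day 0 for each gene on day 7 (left) and day 14 (right), with 95% counting intervals and dotted lines at 2-fold. Blue marks called lower, red called higher and grey not called. Where a library had 0 counts, an arrow, titled a bound in the figure, starts at the ratio against the floor. Tnfsf11 is called lower on both days, Tnfrsf11b on day 7 only, and Acp5 higher on both days.

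Counted together, 5 of the 7 genes reached 1 CPM in at least 1 library of each comparison. On day 7, 1 (Acp5) had risen and 2 (Tnfsf11 and Tnfrsf11b) had fallen against day 0, where 12.2% and 11.4% of the 14694 genes tested were called higher and lower. On day 14, 1 (Acp5) had risen and 1 (Tnfsf11) had fallen, against 9.5% higher and 8.14% lower of 14593. Both comparisons use the day 0 library. Between day 7 and day 14, 1 (Tnfrsf11b) rose and 1 (Acp5) fell, where 2.78% and 2.3% of 14404 genes were called. With 5 genes tested, such counts say little about the group, and the description rests on the single genes. Over all genes tested the day 7 calls divided into 1799 higher and 1679 lower, and into 1476 and 2121 with total counts alone, which moved every log2 ratio by -0.16; on day 14 the calls were 1387 and 1188, or 1139 and 1541.

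Per length, the authors' deposited FPKM placed Csf1 first and Il34 next in every library. On day 0 Csf1 (49.7 FPKM) was followed by Il34 (6.02), Tnfrsf11b (3.43) and Tnfsf11 (3.01), the last pair not differing beyond counting error, and then by Il6 (0.331) and Tnfrsf11a (0.196), which also did not differ beyond it. On day 7 Csf1 (24.2 FPKM) and Il34 (6.40) led, Acp5 (1.59) and Tnfsf11 (1.31) could not be ordered, and Tnfrsf11b (0.303) and Il6 (0.25) could not be ordered either. On day 14 Tnfrsf11b (1.97 FPKM) again came after Il34, above Tnfsf11 (0.775) and Acp5 (0.761), which could not be separated. Csf1 lay above 93.6% of the genes with a count on day 0, whereas Tnfsf11 lay above 48.7% on day 0 and 35.2% on day 14.

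For the 5 genes of 1 CPM or more on average, which leaves out Tnfrsf11a and Il6, the genes of nearest pattern were found over the 3 libraries, as the distance between the pairs of log2 ratios against day 0 (with 0.5 CPM added) among genes of 5 CPM or more on average. Nearest to Tnfsf11 were Gm14321, Mcam (a cell adhesion molecule) and Traf4 (a TNF receptor associated factor), at distances of 0.15, 0.15 and 0.17. Nearest to Tnfrsf11b were Kif26b, a kinesin family gene with 1057, 137 and 604 counts on days 0, 7 and 14, at 0.17, and LOC105244019 and LOC108167845 at 0.23 and 0.32. Csf1 was closest to Slc10a3 (0.02), Tle2 and Slc7a1 (0.04 each), the last a cationic amino acid transporter. Acp5 was closest to Fam71f2 (0.03), Rgcc (0.20) and Bcl6 (0.23), and Il34 to LOC108168753, Arsk and Gnptg, all within 0.02. With 3 libraries such nearness is a weak likeness.

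Upstream of the transcription start, 5 of the 7 genes had an entry in the RefSeq promoter table (GRCm38.p6, the assembly of mm10), and Tnfrsf11b and Il34 had none. Acp5 had 3 windows, of which the one at the start of the gene as listed in the count table was searched. The 250 bases before the start are shown for Tnfsf11 and Acp5, which were called against day 0 on both days, for Csf1, the most abundant of the 7, and for Il6, whose promoter is a textbook target of NF-kB; capitals mark motif matches on either strand. The motifs searched were AP-1 (TGANTCA), the cAMP response element (TGACGTCA), RUNX (TGTGGT), TCF/LEF (CTTTGA), the TATA box (TATAAA), NF-kB (GGG and TTTCC, 2 bases apart) and the glucocorticoid response element (AGAACA and TGTTCT, 3 bases apart).
Tnfsf11, chr14:78308044-78308293, minus strand: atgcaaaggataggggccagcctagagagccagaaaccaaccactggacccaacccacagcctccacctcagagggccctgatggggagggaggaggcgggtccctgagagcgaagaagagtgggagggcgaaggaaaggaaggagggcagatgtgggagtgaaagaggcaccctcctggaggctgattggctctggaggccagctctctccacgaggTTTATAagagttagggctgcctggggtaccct
Csf1, chr3:107760470-107760719, minus strand: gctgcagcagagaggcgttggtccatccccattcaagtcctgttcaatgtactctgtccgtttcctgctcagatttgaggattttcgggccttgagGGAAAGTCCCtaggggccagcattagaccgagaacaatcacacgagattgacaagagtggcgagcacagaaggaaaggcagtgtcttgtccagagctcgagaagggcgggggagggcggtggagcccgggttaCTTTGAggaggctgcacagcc
Il6, chr5:30012864-30013113, plus strand: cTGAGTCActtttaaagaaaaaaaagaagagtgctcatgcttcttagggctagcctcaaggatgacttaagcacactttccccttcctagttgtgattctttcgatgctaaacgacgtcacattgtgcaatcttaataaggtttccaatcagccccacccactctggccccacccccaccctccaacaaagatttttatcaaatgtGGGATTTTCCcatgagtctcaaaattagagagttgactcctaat
Acp5, chr9:22135747-22135996, minus strand: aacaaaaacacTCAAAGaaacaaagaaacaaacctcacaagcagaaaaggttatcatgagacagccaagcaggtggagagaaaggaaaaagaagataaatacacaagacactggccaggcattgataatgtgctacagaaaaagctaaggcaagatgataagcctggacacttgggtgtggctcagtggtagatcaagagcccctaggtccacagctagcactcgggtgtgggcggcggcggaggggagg
In Tnfsf11 the match was to the TATA letters, read on the opposite strand 32 to 27 bases before the start; 12.4% of all 32851 windows of this length hold one. Csf1 and Il6 each held an NF-kB match, which 1.41% of windows have, from 154 to 145 and from 44 to 35 bases before the start. Csf1 also had TCF/LEF letters, as had Acp5 (13.8% of windows), and Il6 an AP-1 match (6.75% of windows). None of the 4 held the letters of the cAMP, RUNX (1.55% and 14.0% of windows) or glucocorticoid elements, the last held by 0.00913% of windows. The window of Tnfrsf11a held no match and is not shown. No 2 matches overlapped, and the matches are a description of letters, not of bound sites.

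Of the tested genes of stromal cells that favour osteoclast formation, mainly genes of cytokines, most were lower. Of 19 listed genes 13 had a count in any library and 10 reached 1 CPM for the day 7 comparison. Of these 10, 7 fell and 2 rose, where 11.4% of all genes tested were lower and 12.2% higher. The 7 were Lif, Il7, Cxcl12, Ccl2, Ccl7, Cx3cl1 and Ptgs2, the last an enzyme gene and not a cytokine gene. The median log2 ratio of the 10, with counts of 0 set to the floor, was -2.22, beside 0.00 over all genes tested. On day 14, 7 of 11 were lower and 1 higher, with a median of -1.81, where 8.14% and 9.5% of all genes tested were called. The list was chosen with earlier results of these data known, so these shares are a description only. Ccl7 and Ccl2, chemokines that draw monocytes, fell. Ccl7 had 56 counts on day 0 and 0 on day 7, 17.8-fold less against the floor, with a lower counting limit of 13.99-fold. Ccl2 had 173 and 11, 14.99-fold less (8.17 to 30.6). Il7, a lymphocyte growth factor, had 22 and 0 counts, 6.99-fold less against the floor, with a lower counting limit of 5.22-fold. The Il7 call was lost, at 1.77-fold, with a pseudocount of 2 CPM. Vegfa, the angiogenic factor and the gene with the most counts in the list, rose 2.11-fold on day 7 (1.999 to 2.23), a call that total counts alone ended at 1.89-fold. Il15 rose 6.93-fold on day 7 (3.54 to 15.1) and fell 2.18-fold from day 7 to day 14 (1.40 to 3.46), the latter call being lost, at 1.97-fold, with a pseudocount of 0.5 CPM. With a minimum of 5 CPM, the day 7 calls of Ccl7, Il7 and Il15 were lost. Il1a, Il1b, Tnf, Il17a, Tnfsf14 and Wnt5a were at 0 in all 3 libraries.

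Among 13 inhibitors of osteoclast formation only 4 could be tested. On day 7, 1 (Slit3) rose, 1 (Sema3a) fell and 2 were not called. Over all genes tested, 12.2% were higher and 11.4% lower. Sema3a, a semaphorin that restrains osteoclasts, fell 69.3-fold by day 7 (37.5 to 145) and was still 22.9-fold below day 0 on day 14 (15.99 to 33.96), after rising 3.03-fold from day 7 (1.45 to 6.92). Slit3, a guidance ligand, rose 3.96-fold on day 7 (3.38 to 4.66). Lgr4, which can bind RANKL, stood at 50.3, 70.9 and 71.98 CPM on days 0, 7 and 14, within 2-fold. Il18 stood at 8.15, 9.07 and 8.71 CPM, also within 2-fold. The list's median log2 ratio on day 7 was 0.33, beside 0.00 over all genes tested.

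Receptors through which hormones and cytokines act on the RANKL and osteoprotegerin genes in stromal cells moved in both directions. Of 12 tested, 5 rose and 3 fell on day 7, and 5 rose and 1 (Osmr) fell on day 14, with medians of 0.57 and 0.53. Over all genes tested, 12.2% were higher and 11.4% lower on day 7, and 9.5% and 8.14% on day 14. Pth1r, the parathyroid hormone receptor, rose 19.5-fold by day 7 (14.4 to 27.1), from 44 to 818 counts. Lifr, the leukaemia inhibitory factor receptor and the most abundant of the list, rose 3.62-fold (3.47 to 3.79), and Osmr, the oncostatin M receptor, fell 2.79-fold (2.32 to 3.36). Of 16 transcription factors tested that have been reported to act on these genes, 3 rose (Cebpd, Jun and Fos) and 3 fell (Tcf7l2, Lef1 and Atf4) on day 7. Cebpd, a C/EBP factor, rose 39.2-fold (27.3 to 58.3) and Fos 4.90-fold (3.64 to 6.70). Lef1, a nuclear partner of beta-catenin, fell from 16 counts to 1, 15.2-fold (2.37 to 639), a call that was lost, at 1.51-fold, with a pseudocount of 2 CPM. Ctnnb1, the beta-catenin gene and the most abundant, stood at 640 CPM on day 0 and 1069 on day 7, under 2-fold. On day 14, 4 of the 16 had risen and 2 had fallen.

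Inside the cell, 19 of 22 genes of RANK and NF-kB signalling were not called on day 7, with a median log2 ratio of -0.15. Over all genes tested on that day, 12.2% were called higher and 11.4% lower. Nfkbia, the inhibitor of NF-kB that is itself a target of it, rose 3.45-fold (3.15 to 3.79), Gab2, an adaptor of RANK, rose 2.56-fold (2.25 to 2.92), and Traf5 fell 2.76-fold (2.17 to 3.55). The most abundant, Sqstm1 (p62), stood at 435, 371 and 371 CPM. Of the other receptors and RANKL shedding proteases, 1 of 7 tested, Il6ra, rose on day 7, 2.56-fold (2.17 to 3.04); Mmp14, a protease that can release RANKL, stood at 403, 346 and 450 CPM. IL-6 signal transduction had 2 of 11 genes higher, Il6ra and Jak2, and 1, Socs1, lower on day 7. Jak2, a kinase of cytokine receptors, rose 3.12-fold (2.89 to 3.37) and Socs1, a feedback inhibitor, fell 3.01-fold (1.91 to 4.87), and Il6st, the shared receptor subunit gp130, stood at 227 and 279 CPM. The day 7 call of Socs1 was lost, at 1.98-fold, with a pseudocount of 2 CPM. Il6ra and Il6st are in 3 of these lists.

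Few of the wider family of RANKL were detected, and members of the family of RANK and osteoprotegerin moved in both directions. Of 17 other TNF superfamily ligands, 8 had a count and 3 reached 1 CPM on day 0 or day 7. Tnfsf13 (APRIL) rose from 3 to 17 counts, 5.95-fold (1.72 to 31.7), a call that was lost, at 1.47-fold, with a pseudocount of 2 CPM. Tnfsf12 (TWEAK), the most abundant, stood at 70, 76 and 63 counts, while Tnfsf15 had 59, 41 and 65. Of the 14 tested of 23 other TNF receptor superfamily members, 6 fell and 2 rose on day 7, with a median log2 ratio of -0.96. Over all genes tested, 11.4% were lower and 12.2% higher. On day 14 again 6 were lower and 2 higher, with a median of -0.64, where 8.14% and 9.5% of all genes tested were called. Eda2r fell 10.9-fold on day 7 (5.05 to 27.96) and Tnfrsf10b, the TRAIL receptor, 4.76-fold (3.86 to 5.92). Tnfrsf21 (death receptor 6) rose 15.1-fold (8.82 to 28.2), from 14 to 202 counts. Tnfrsf1a, the main TNF receptor and the most abundant, stood at 109, 98.6 and 105 CPM.

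From day 7 to day 14, the calls in these lists were Sema3a higher and Il15 lower, and Bglap was higher among the cementoblast and osteoblast markers. The calls of Sema3a, Il15 and Bglap were lost with a pseudocount of 2 CPM, at 1.55-fold, 1.62-fold and 1.68-fold. A minimum of 5 CPM or a 4-fold threshold also ended them. With total counts alone, the day 7 calls of Jun, Lrp5 and Vegfa were lost and Adam10, Fas, Ltbr, Nfkb2 and, of the macrophage markers, Cd14 were called lower.

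**Figure D4:**
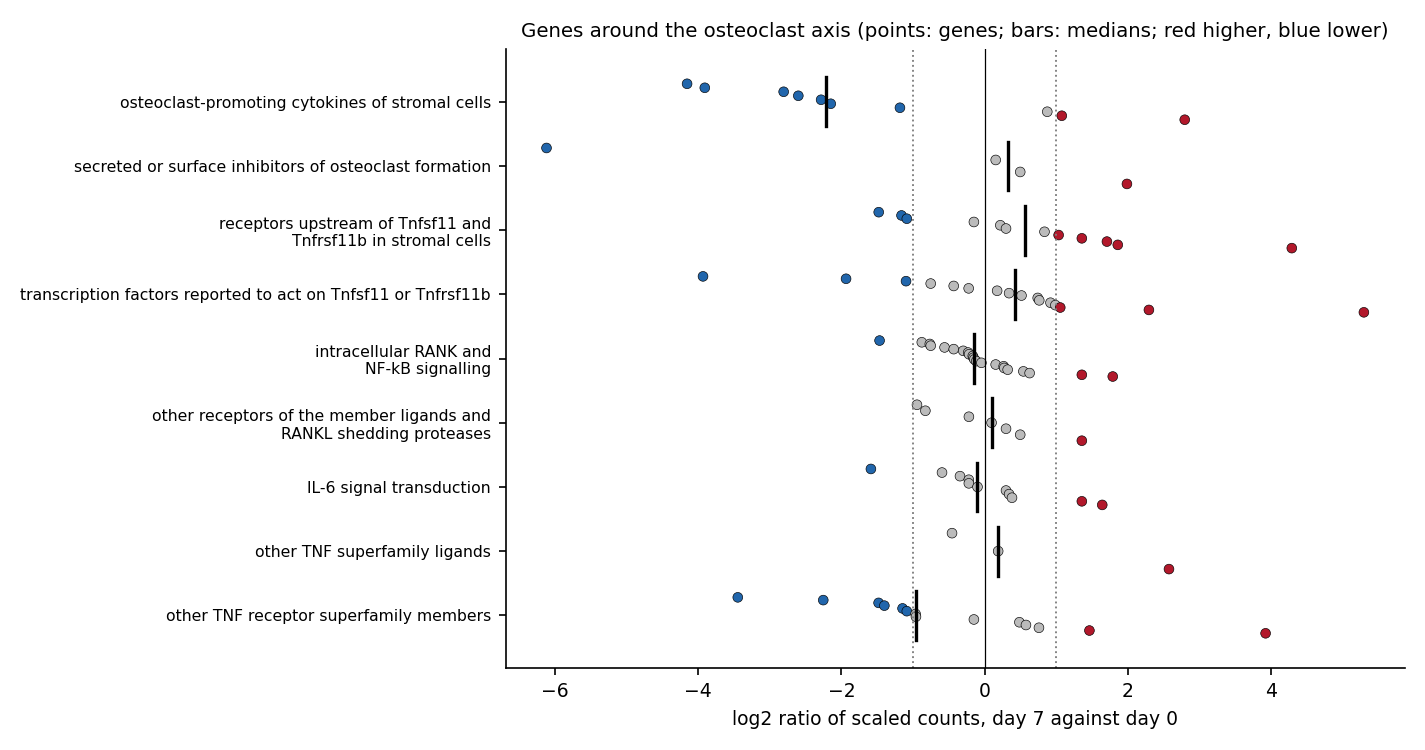
log2 ratio of scaled counts on day 7 against day 0 (horizontal axis) for genes of 1 CPM or more in each list around the osteoclast axis, with 1 point a gene, blue for called lower, red for called higher, grey for not called, black bars at list medians and dotted lines at 2-fold. The list of osteoclast-promoting cytokines, which also holds the enzyme gene Ptgs2, has its median at -2.22. That of other TNF receptor superfamily members is at -0.96, and the other medians lie between -0.15 and 0.57.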

How the data were processed

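Total RNA of OCCM-30 cells was measured on day 0, 7 and 14, with 1 library each, and columns were assigned to time points by their names and the sample titles. The deposited gene table holds raw counts made by the authors, and a second table holds the authors' deposited FPKM, which equalled count over listed length and library total within a tolerance of 0.001 for all 7 genes. Gene lengths are those listed in the deposited table. HISAT2, TopHat, Cufflinks, HTSeq and DESeq with mm10 are named in the submitters' processing notes; no source used here gives their versions, roles or strand setting.

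TMM factors from edgeR 4.0.16 (R 4.3.3) were 1.08, 0.966 and 0.962 for day 0, 7 and 14. Ratios were called by size and counting interval, with no test across samples (Python 3.11.15, scipy 1.17.1). Each count of 0 was replaced by a per-library floor of 3 (0.211, 0.221 and 0.216 CPM). The procedure was run on simulated counts with Poisson error only, which cannot show how it behaves under variation between cultures. Totals were 13224690, 14034518 and 14439666 counts. The genes and the 13 lists were chosen with earlier results of these data known. Named from each list were the 3 largest called ratios against day 0, the most abundant gene and any gene called in both directions; other genes named were chosen after their values were seen. The alternatives tried were scaling by total counts, by DESeq2 1.42.0 size factors and by TMM without mitochondrial and small RNA genes, the deposited FPKM, pseudocounts of 0.5 and 2 CPM, no minimum or 5 CPM, and a 4-fold threshold. The miRNA tables are not used here.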

Additional observations from a re-analysis of the deposited data

How the results depend on the processing

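Only counting error is covered by the intervals, and a day rests on 1 library. DESeq2 size factors and TMM without mitochondrial and small RNA genes changed no call of the 7 genes. Total counts, and likewise FPKM, moved the log2 ratio of Csf1 to -1.03 on day 7 (called lower) and -0.23 on day 14. A pseudocount of 0.5 CPM gave Tnfrsf11a -1.50 and Acp5 3.28 on day 7 and Acp5 2.37 on day 14; it left 1 gene called lower on day 7 and 0 called lower on day 14 against day 7, with 242 genes in all higher and 183 lower in the latter. A pseudocount of 2 CPM gave Tnfrsf11b -1.93, Tnfrsf11a -0.54 and Acp5 1.67 on day 7, Tnfsf11 -1.12, Tnfrsf11a -0.44 and Acp5 1.03 on day 14, and Tnfrsf11b 1.43 for day 14 against day 7; 1 of the 7 was lower on day 7 and 0 lower on day 14 against day 7. All genes called higher and lower were then 1028 and 936 on day 7, 791 and 569 on day 14, and 66 and 25 for day 14 against day 7. With no minimum Tnfrsf11a was added to the genes called lower on both days, making 3 of the 7 on day 7 and 2 on day 14. A minimum of 5 CPM left 0 higher on day 7 and on day 14 and 0 lower on day 14 against day 7, with 1078 and 1034, 794 and 649, and 111 and 71 genes in all. A 4-fold threshold left 1 lower on day 7 and 0 lower on day 14 and on day 14 against day 7, with 718 and 637, 591 and 391, and 76 and 61 in all. Without the length term the Csf1 to Il34 ratio was 18.5, 8.51 and 11.6 on day 0, 7 and 14, and the Tnfsf11 to Tnfrsf11b ratio 0.695, 3.42 and 0.3125. Of 702 counts of context lists recomputed, 94 moved by over 1.5 times, 34 of them with the 4-fold threshold and 9 with total counts. The cause was not tested. No paired analysis was possible because each time point has 1 library.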
